A study of Arabidopsis thaliana with 45 samples.

Results

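The seed storage protein genes of Arabidopsis thaliana were followed across genotypes and imbibition treatments at 8 loci: the 3 cruciferin loci CRA1 (AT5G44120), CRU2 (AT1G03880) and CRU3 (AT4G28520), and the 5 loci of 2S albumins SESA1 to SESA5 (AT4G27140, AT4G27150, AT4G27160, AT4G27170 and AT5G54740). The members were listed by locus, with earlier results of these data known, and are 8 of the 27587 loci in the count table. All 8 passed the filter on low counts, as did 18066 loci in all. RNA from whole seeds of the Col0 ecotype was sequenced in 45 libraries. Of the 4 genotypes, the libraries labelled qko carry cyp79B2 cyp79B3 myb28 myb29, those labelled myb carry myb28 myb29, those labelled cyp carry cyp79B2 cyp79B3, and WT is the wild type. Seeds of each genotype were imbibed for 6 h in 10 mM KNO3, in 8 µM KSCN or in water, or were left dry. This made 16 groups, with 3 libraries in each of 13. Dry myb, KNO3-treated myb and KSCN-treated cyp had 2 each. The alleles are not named in the labels. Whether the replicates are separate plants or batches is not stated either, and p-values therefore measure only the spread between these samples. Levels are CPM (counts divided by the library total and put on a common scale), with that total adjusted by trimmed means, and are called scaled CPM. A locus was called higher or lower where edgeR's quasi-likelihood test gave an adjusted p under 0.05 over all tested loci.

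Cruciferins are the globulins of the crucifer seed. They are made as precursors with a pair of cupin domains, cut in the protein storage vacuole and packed as hexamers. The 2S albumins, also called napins, are small proteins rich in cysteine that are processed in the same vacuole. Embryos make the transcripts of these families during maturation, under the B3 factors ABI3, FUS3 and LEC2 and their bZIP partners. The B3 factors bind RY repeats, and the bZIP proteins bind elements with an ACGT core. A stock of these transcripts stays in the dry seed and is run down after water uptake. The mutants named in the labels lack steps of glucosinolate synthesis: CYP79B2 and CYP79B3 start the indolic branch, and MYB28 and MYB29 activate the aliphatic branch, which takes up sulfur as methionine.

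Library totals ran up to 22910834 counts, with 18097331 in the shallowest library, KNO3-treated qko replicate 7, and 21363761 in the second shallowest. The targeted genes could not check the labels, because their counts in WT were at or near 0. MYB28 had 0 counts in all 45 libraries, and MYB29 had at most 14 in qko, at most 6 in myb and 0 in cyp and WT. CYP79B2 had 6 to 31 counts in the libraries labelled cyp and 0 to 3 in those of WT, and CYP79B3 had 10 to 124 in cyp and 0 to 5 in WT. These genes were thus not lower in the libraries labelled as their mutants, and the genotype names below are those of the labels. The imbibed qko libraries of replicate 7 stood apart from replicates 4 and 6 of their groups, with a mean chi-square per locus of 56.6 to 73.2 against them and 6.44 to 11.2 between those. KNO3-treated cyp was as spread, at 89.6 between replicates 6 and 8 and 26.8 and 29.9 for its other pairs. Where leaving out such a library changes a call or moves a called value by over 1.5 times, the value without it is given. The samples are whole seeds, in which fewer cells of a type and less RNA per cell cannot be told apart.

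SESA1 to SESA4 stand in tandem on the plus strand of chromosome 4 within 6955 bases (TAIR10.1, chr4:13607329-13614283), each with 1 exon. CRU3 lies further along the same chromosome (chr4:14087556-14089796). CRU2 is on chromosome 1 (chr1:985751-988146), and CRA1 (chr5:17756238-17758336) and SESA5 (chr5:22238358-22239187) are on the minus strand of chromosome 5. All positions, sequences and lengths here come from RefSeq TAIR10.1, and the build behind the counts is not given in the sources used here. The coding starts of the 4 tandem genes are shown because their likeness bears on how reads can be told apart. Each is the first 60 bases from the start codon, with capitals at the 9 positions where the 4 genes do not all have the same base.
SESA1: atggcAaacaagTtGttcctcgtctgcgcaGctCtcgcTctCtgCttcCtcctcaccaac
SESA2: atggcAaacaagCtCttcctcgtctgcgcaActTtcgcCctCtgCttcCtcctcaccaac
SESA3: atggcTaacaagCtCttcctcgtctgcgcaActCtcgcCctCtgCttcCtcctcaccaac
SESA4: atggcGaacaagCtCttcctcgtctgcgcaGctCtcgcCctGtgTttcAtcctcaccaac
Over the whole coding sequence SESA2 and SESA3 were 89.7% identical, and pairs among the 4 tandem genes 80.6% to 89.7%. SESA5 shared 60.7% to 61.3% with them. CRA1 and CRU2 were the closest cruciferins at 73.6%. No stretch of 100 bases, the read length, was shared exactly between the main transcripts of any members. The longest exact match was 49 bases, between SESA2 and SESA3. The split of reads among SESA1 to SESA4 is still to be taken as uncertain.

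The 250 bases before the transcript start are shown for 4 members, because they come from loci that moved most unlike each other in the results. SESA3 and SESA4 were among the lowest against WT in the qko and myb genotypes, and CRA1 and SESA2 the least lowered. Capitals mark CATGCA, the core of the RY repeat, and ACGTG, the core of the abscisic acid response element, on either strand.
SESA3, chr4:13611546-13611795, plus strand: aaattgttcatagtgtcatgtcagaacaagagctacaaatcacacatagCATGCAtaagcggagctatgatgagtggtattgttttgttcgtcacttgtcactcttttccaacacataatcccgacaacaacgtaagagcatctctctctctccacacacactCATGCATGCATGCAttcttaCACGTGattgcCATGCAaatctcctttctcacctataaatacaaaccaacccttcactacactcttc
SESA4, chr4:13613346-13613595, plus strand: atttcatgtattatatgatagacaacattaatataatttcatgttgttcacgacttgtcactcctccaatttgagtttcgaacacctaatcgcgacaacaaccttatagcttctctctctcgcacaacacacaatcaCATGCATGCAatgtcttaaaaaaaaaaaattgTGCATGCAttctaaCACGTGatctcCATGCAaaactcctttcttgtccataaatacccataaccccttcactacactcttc
CRA1, chr5:17758337-17758586, minus strand: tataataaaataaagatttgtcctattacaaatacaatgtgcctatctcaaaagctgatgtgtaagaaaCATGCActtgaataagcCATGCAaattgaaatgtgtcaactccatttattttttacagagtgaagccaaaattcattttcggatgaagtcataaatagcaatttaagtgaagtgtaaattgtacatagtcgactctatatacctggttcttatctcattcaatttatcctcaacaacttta
SESA2, chr4:13609091-13609340, plus strand: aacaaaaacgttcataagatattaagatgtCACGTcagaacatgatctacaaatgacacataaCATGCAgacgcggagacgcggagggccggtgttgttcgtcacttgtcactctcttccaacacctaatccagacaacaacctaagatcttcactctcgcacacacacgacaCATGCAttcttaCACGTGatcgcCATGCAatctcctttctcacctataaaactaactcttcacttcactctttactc
Matches were counted on both strands with overlaps, so a CACGTG palindrome counts as 2 matches to ACGTG. SESA3 held 7 matches to CATGCA and SESA4 held 6, many of them overlapping each other. SESA5 held 4, SESA2 held 3, SESA1 and CRA1 held 2 and CRU3 held 1. For ACGTG, CRU3 and SESA2 held 3 matches, the other SESA windows 2, and CRA1 held 0. Each SESA window held 1 CACGTG, the G-box, which began 65 to 68 bases before the start, and the windows of CRA1 and CRU3 held 0. Among 27561 windows of the same length before annotated genes, 8.41% held CATGCA, 22.9% held ACGTG, 6.46% held CACGTG and 2.21% held the first and second together. At least 2 matches to CATGCA were held by 1.65% of them. SESA3 and SESA4 had the most RY matches among the member windows given here, not among all windows. Whether the number of matches goes with the differences from WT was not tested. A match is a run of letters and not a measured binding site.

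In dry WT seeds the 8 loci took 18.7% ± 0.908 of all counts (mean ± SD, n = 3). Cruciferins made up 14.1% ± 0.935 and 2S albumins 4.66% ± 0.332. CRU3 ranked first among all loci by counts and CRA1 second in every dry WT library, and SESA3 ranked 3 or 4. SESA5 ranked 10, CRU2 13 to 15, SESA1 19 to 21, SESA2 79 to 88 and SESA4 169 to 172. Counts grow with transcript length, so levels are compared between genes per kilobase of the main transcript. On that scale dry WT seeds held 73189 ± 5031 scaled CPM per kilobase of CRU3 and 64115 ± 6564 of SESA3, whose libraries overlapped. CRA1 followed at 46243 ± 4161, SESA5 at 17891 ± 756, SESA1 at 10383 ± 392, CRU2 at 7615 ± 480, SESA2 at 2292 ± 197 and SESA4 at 1220 ± 31.2 scaled CPM per kilobase. SESA3 thus carried most of the 2S albumin transcript of dry WT seeds, and SESA2 and SESA4 the least.

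In dry seeds of the mutants the share of the counts held by the 8 loci was 13.1% ± 0.667 in the libraries labelled qko (n = 3), 14.7% ± 0.039 in myb (n = 2) and 9.69% ± 0.161 in cyp (n = 3). The cruciferin share was 12.5% ± 0.635 in qko, 13.6% ± 0.0234 in myb and 7.94% ± 0.129 in cyp, against 14.1% in WT. The 2S albumin share was 0.644% ± 0.0550 in qko, 1.08% ± 0.0625 in myb and 1.75% ± 0.0316 in cyp, against 4.66% in WT. As a ratio to WT the albumin share was the lower of the pair in each mutant, whereas in percentage points the cruciferin share of cyp lay further under WT than its albumin share. Within a library the ratio of the families needs no scaling between libraries. Per 100 cruciferin counts there were 5.15 ± 0.368 albumin counts in dry qko, 7.98 ± 0.474 in dry myb, 22.1 ± 0.0521 in dry cyp and 33.2 ± 3.51 in dry WT seeds.

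**Figure D1:**
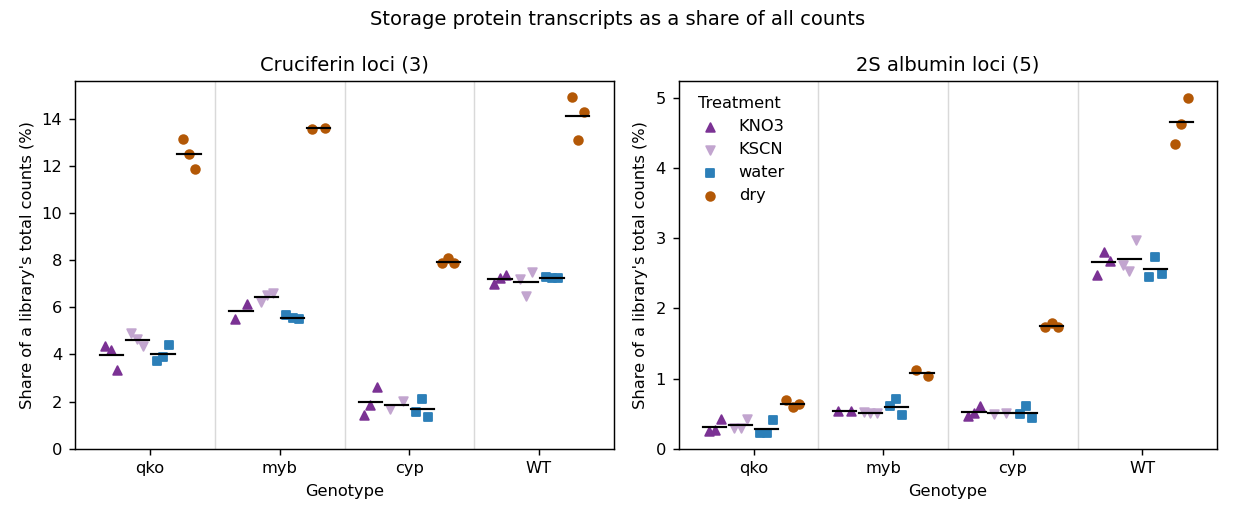
Share of all counts in a library taken by the 3 cruciferin loci (left) and the 5 loci of 2S albumins (right), in percent, with 1 point per library, a line at the group mean and colours for the treatments, by genotype. The albumin share of dry seeds was 0.644% in qko, 1.08% in myb, 1.75% in cyp and 4.66% in WT, while the cruciferin share of dry myb seeds (13.6%) lay inside the range of the dry WT libraries.

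After 6 h in water all 8 loci were lower than in dry seeds in every genotype, with no overlap between the libraries. The share of all tested loci without such overlap was not counted. The 8 loci took 4.29% ± 0.481 of the counts in water in qko, 6.16% ± 0.159 in myb, 2.19% ± 0.491 in cyp and 9.82% ± 0.150 in WT. The count of 8 of 8 stands beside 32.2% of all tested loci called lower in water in qko, 31.3% in myb, 38.9% in cyp and 33.5% in WT. The storage loci thus lay, in every genotype, among the transcripts that were lower after imbibition.

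In WT the log2 fold changes of water over dry lay between -1.92 for CRU2 and -1.20 for SESA1, with a median of -1.64 over the 8 loci and 0.08 over all tested loci. CRU3, the most abundant cruciferin, had 38846, 39136 and 39618 scaled CPM in WT seeds in water, against 138685, 121240 and 133977 in dry WT seeds. SESA3, the main albumin, had 15173, 16618 and 15412 scaled CPM in water and 45472, 47281 and 54966 dry. For both genes the highest imbibed library was under the lowest dry one. By group CRU3 was 3.35-fold lower in water and SESA3 3.13-fold lower (edgeR adjusted p = 1.4e-10 and 6.8e-07). The medians of the 8 log2 fold changes were -2.26 in qko, -1.77 in myb and -2.54 in cyp.

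The steepest fall after imbibition was that of SESA5 in the libraries labelled cyp. SESA5 had 780, 1020 and 735 scaled CPM in cyp seeds in water, against 10002, 10304 and 10503 in dry cyp seeds (log2 fold change -3.60, SE 0.21, edgeR adjusted p = 9.7e-18). CRU2 was at -3.22 in qko and -3.21 in cyp. In qko SESA4 was at -2.53 and SESA3 at -2.15, and without the number 7 libraries of qko they were at -3.25 and -2.84. SESA2 was the least changed member in cyp (-1.10) and in qko (-1.32), and SESA1 in myb (-1.08) and in WT (-1.20). Scaling by trimmed means sets the centre of all loci near 0. Scaling to total counts instead set the median log2 fold change of all tested loci at 0.75 to 0.83 in the 4 imbibition comparisons, and every member still lay under 0. Of the called loci 72.6% were then higher in water in cyp, against 51.2% with trimmed means, and 82.5% in WT, against 52.6%. Under it 5 calls were lost, SESA1 and SESA4 in WT (adjusted p = 0.052 and 0.16), SESA1 and SESA4 in myb (0.12 and 0.053) and SESA2 in cyp (0.066). The SESA4 call in WT was also lost with scaling to the counts outside the storage and oil body loci (edgeR adjusted p = 0.069).

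**Figure D2:**
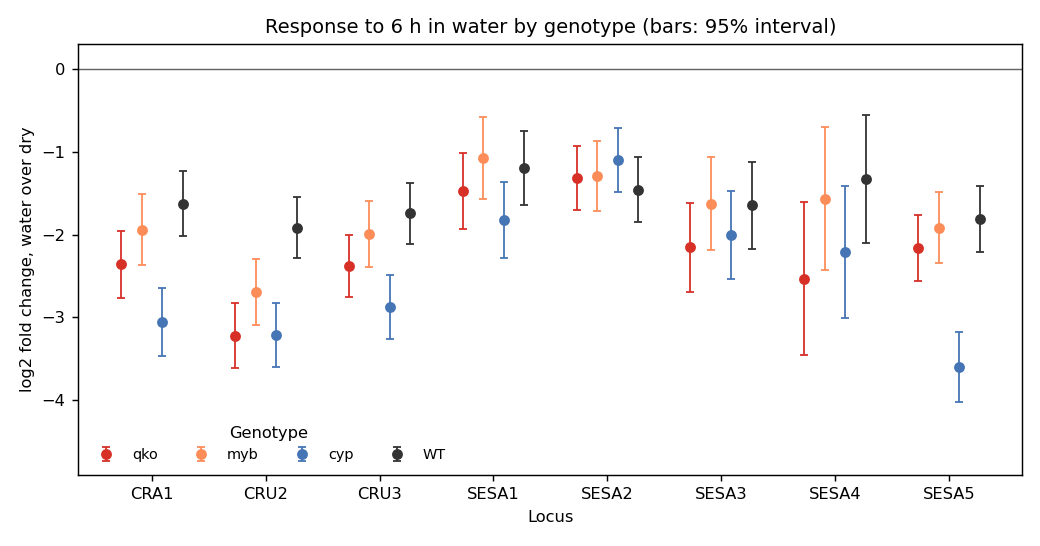
Difference between seeds in water and dry seeds for each member, as the log2 fold change of water over dry with its 95% interval, by genotype. All 32 points lie under 0, from -3.60 for SESA5 in cyp to -1.08 for SESA1 in myb.

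Dry seeds of the libraries labelled qko and myb were set against dry WT seeds to ask how the genotypes differ in the transcripts laid down before harvest. CRU2, SESA3 and SESA4 were 8.88-fold to 33.6-fold lower, while CRA1 was not lower in either. In qko 6 of 8 members were lower and 1 was higher, beside 23.6% and 25.4% of all tested loci called lower and higher. In myb 6 of 8 were lower and 0 higher, beside 17.3% and 20.6% of all tested loci. The median of the 8 log2 fold changes was -1.91 in qko and -1.05 in myb, against 0 and 0.01 over all tested loci.

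CRU2, the cruciferin B gene, had 1146, 816 and 1004 scaled CPM in dry qko seeds and 1003 and 1007 in dry myb seeds, against 13196, 11631 and 12478 in dry WT seeds. The mutant libraries lay close to each other and all far under WT. CRU2 was 12.6-fold lower in qko (SE 0.19 on the log2 scale, edgeR adjusted p = 8.7e-18) and 12.4-fold lower in myb (SE 0.23, adjusted p = 4e-15). Its rank by counts was 143 to 190 in dry qko libraries and 138 to 145 in dry myb libraries, against 13 to 15 in dry WT libraries.

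SESA3 had 2864, 1997 and 2267 scaled CPM in dry qko seeds and 3693 and 2966 in dry myb seeds, against 45472, 47281 and 54966 in dry WT seeds. It was 20.7-fold lower in qko (SE 0.29 on the log2 scale, edgeR adjusted p = 4.5e-15) and 14.8-fold lower in myb (SE 0.33, adjusted p = 1.3e-11). The most abundant albumin transcript of dry WT seeds thus lay under SESA5 in dry seeds of these genotypes. SESA3 took 0.151% of all counts in dry qko seeds and SESA5 0.298%. In dry myb seeds SESA3 took 0.229% and SESA5 0.456%. SESA4 had 34.3, 14.8 and 25.9 scaled CPM in dry qko seeds and 100.1 and 89.0 in dry myb seeds, against 824, 830 and 864 in dry WT seeds. It was 33.6-fold lower in qko (edgeR adjusted p = 1.1e-11) and 8.88-fold lower in myb (adjusted p = 2.3e-06). The qko libraries lay under the myb libraries, and both sets under WT.

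CRA1, the cruciferin A gene, went the other way. It had 124835, 118004 and 105084 scaled CPM in dry qko seeds and 110554 and 107445 in dry myb seeds, against 85400, 71857 and 82884 in dry WT seeds. Every mutant library lay above every WT library. CRA1 was 1.45-fold higher in qko (SE 0.19 on the log2 scale, edgeR adjusted p = 0.018), a call lost without replicate 8 of dry WT (adjusted p = 0.073) or replicate 4 of dry qko (0.061). In myb it stood 1.36-fold above WT without passing the threshold (adjusted p = 0.089). CRA1 was called in myb with total-count scaling (adjusted p = 0.014), with scaling to the counts outside the storage and oil body loci (0.044), by DESeq2 (0.043), with a replicate block (0.046) and with only the compared groups in the fit (0.0041). The block here joined equal replicate numbers across genotypes, and the labels do not say that these are shared.

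SESA2, the neighbour of SESA3 in the array, was not called in either genotype. It had 1383, 1324 and 1495 scaled CPM in dry qko seeds and 2117 and 1599 in dry myb seeds, against 1555, 1658 and 1841 in dry WT seeds. The 95% interval of its log2 difference from WT ran from -0.65 to 0.12 in qko and from -0.28 to 0.57 in myb. With only the compared groups in the fit SESA2 was called lower in qko (edgeR adjusted p = 0.0055). The remaining members lay between these extremes. CRU3 was 1.65-fold lower in qko and 1.52-fold lower in myb (edgeR adjusted p = 0.00087 and 0.017), the second call being lost without replicate 5 (0.052) or replicate 9 (0.12) of dry myb. SESA1 was 4.43-fold lower in qko and 1.90-fold lower in myb, and SESA5 3.17-fold and 2.25-fold lower. The SESA1 call in myb was lost without replicate 9 of dry myb (adjusted p = 0.071).

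**Figure D3:**
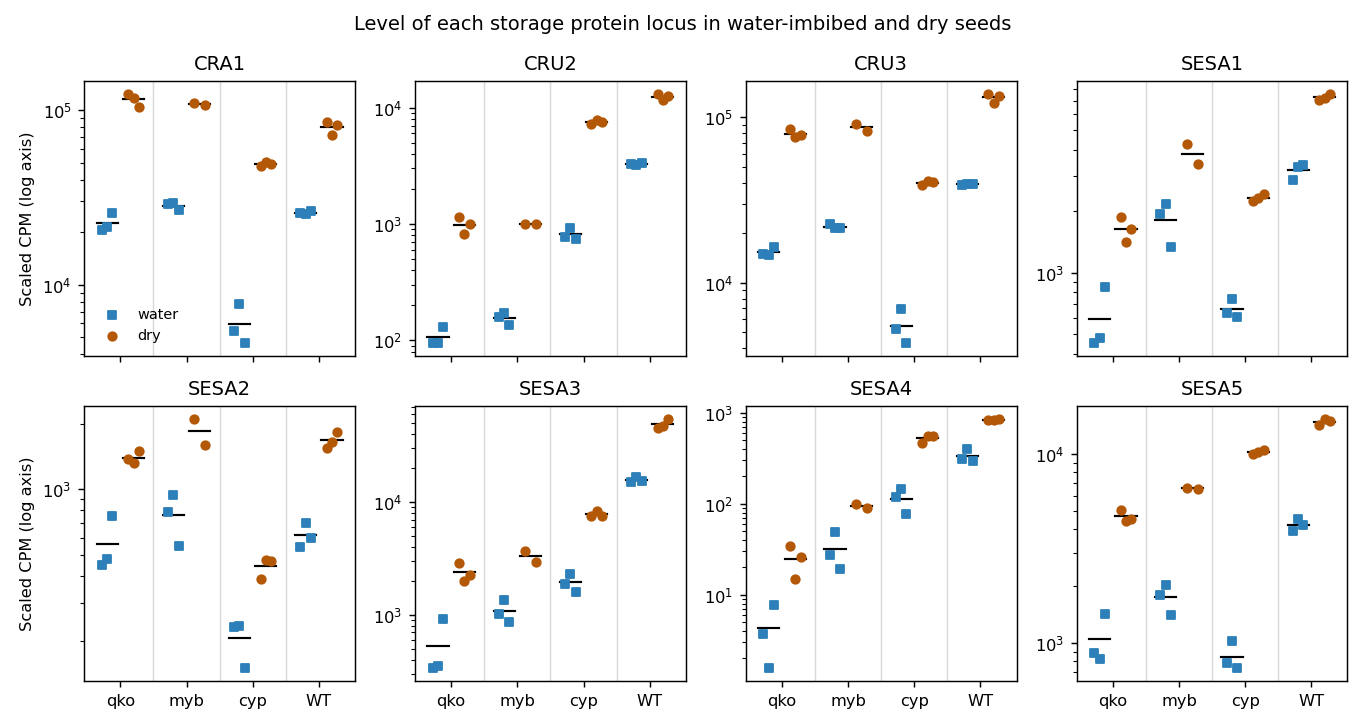
Level of each member in scaled CPM on a log axis, with 1 point per library and a line at the group mean, in seeds in water and in dry seeds of the 4 genotypes. The CRU2 points of dry qko (816 to 1146) and dry myb (1003 and 1007) lie far under those of dry WT (11631 to 13196), while the CRA1 points of dry qko (105084 to 124835) and dry myb (107445 and 110554) lie above those of dry WT (71857 to 85400).

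With the 4 tandem genes summed before the fit, which does not depend on how reads were split among them, the sum was lower than WT in dry seeds by a log2 fold change of -3.44 in qko, -2.69 in myb and -2.41 in cyp (edgeR adjusted p = 1.2e-14, 3.9e-10 and 4.2e-10). Ratios within a library showed the contrast between members without any scaling. Per 100 CRA1 counts, dry seeds held 0.855 ± 0.143 CRU2 counts in qko, 0.922 ± 0.0210 in myb, 15.3 ± 0.145 in cyp and 15.6 ± 0.574 in WT. Per 100 SESA2 counts, they held 170 ± 32.2 SESA3 counts in qko, 180 ± 7.81 in myb, 1775 ± 164 in cyp and 2920 ± 67.0 in WT. The CRU2 to CRA1 ratio of cyp thus lay near that of WT, and those of qko and myb well under it.

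The libraries labelled cyp were set against WT in the same way, and here all 8 members leaned down. In dry seeds 7 of 8 were called lower, beside 13.4% of all tested loci, with a median log2 fold change of -1.18 against 0.03 over all tested loci. SESA3 was lowest against WT, with 7531, 8335 and 7551 scaled CPM in dry cyp seeds and 45472, 47281 and 54966 in dry WT seeds, a 6.31-fold difference (edgeR adjusted p = 2e-09). SESA2 was 3.81-fold lower, with 387, 472 and 467 scaled CPM in dry cyp seeds and 1555, 1658 and 1841 in dry WT seeds. CRU3 was 3.27-fold lower and SESA1 3.12-fold lower. The cyp libraries lay under every WT library for each of the 8 loci. How many of all tested loci were apart in this way was not counted.

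The differences were smaller for CRA1 (1.63-fold lower), CRU2 (1.65-fold lower) and SESA5 (1.45-fold lower), and SESA4 at 1.60-fold lower did not pass (edgeR adjusted p = 0.18). CRA1 had 47653, 50634 and 49392 scaled CPM in dry cyp seeds, against 85400, 71857 and 82884 in dry WT seeds. Scaling to total counts set the median log2 fold change of all tested loci at 0.41 in this comparison, with 93.9% of the called loci higher in cyp against 54.6% with trimmed means, and 4 of 8 members were then called lower. CRA1, CRU2 and SESA5 lost their calls there (adjusted p = 0.11, 0.070 and 0.49). The SESA5 call was also lost with scaling to the counts outside the storage and oil body loci (0.17) and without replicate 8 or 9 of dry WT or replicate 7, 8 or 9 of dry cyp (0.062 to 0.080). SESA4 was called lower with only the compared groups in the fit (adjusted p = 6e-07).

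**Figure D4:**
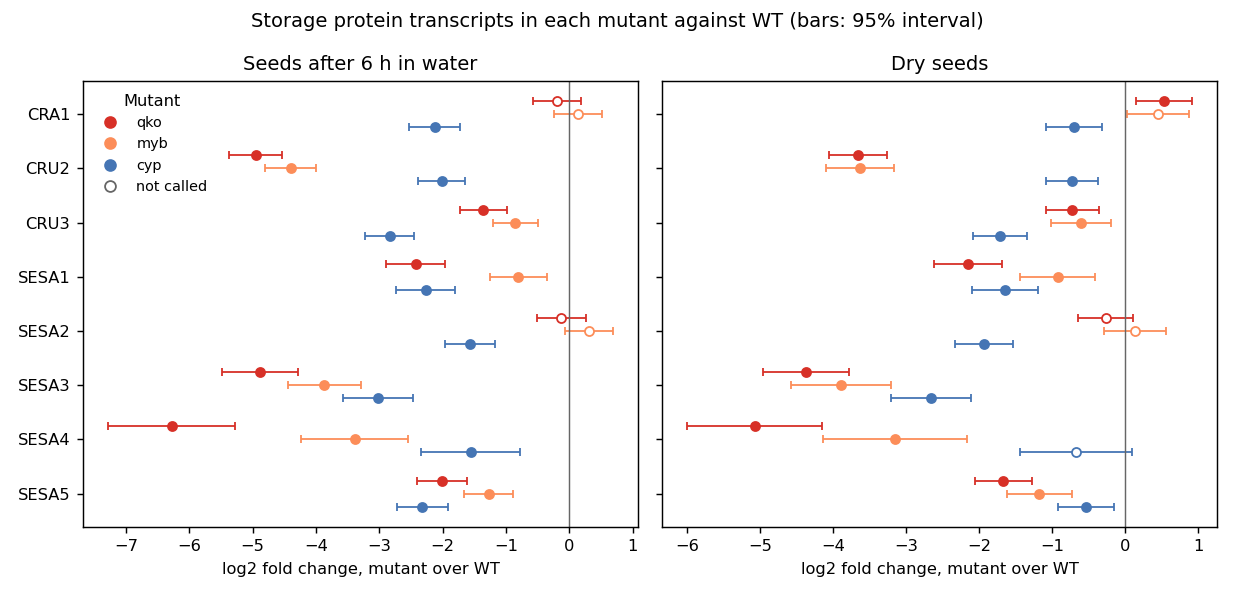
Difference from WT for each member in the libraries labelled qko, myb and cyp, as the log2 fold change of mutant over WT with its 95% interval, for seeds in water and dry seeds. Hollow points did not pass an adjusted p of 0.05, and the lowest point is SESA4 of qko in water at -6.28.

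The mutants were set against WT in water in the same way. In the libraries labelled qko 6 of 8 members were lower, beside 24.9% of all tested loci, and in those labelled myb 6 of 8, beside 17.7%. In those labelled cyp 8 of 8 were lower, beside 31.9%. The median of the 8 log2 fold changes was -2.22 in qko, -1.06 in myb and -2.20 in cyp, and 0.00 over all tested loci in each of the 3 comparisons.

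SESA4 was nearly gone from imbibed qko seeds, with 3.7, 1.5 and 7.8 scaled CPM, against 310, 396 and 298 in WT seeds in water. The difference was 77.6-fold (SE 0.49 on the log2 scale, edgeR adjusted p = 4.8e-13), or -6.28 on the log2 scale, and -7.01 without the number 7 libraries of qko. CRU2 had 94.2, 94.4 and 130 scaled CPM in qko and 158, 173 and 135 in myb, against 3280, 3236 and 3354 in WT. It was 31.0-fold lower in qko and 21.2-fold lower in myb (edgeR adjusted p = 1.5e-20 and 4.9e-19). SESA3 was 29.5-fold lower in qko, 14.6-fold lower in myb and 8.12-fold lower in cyp. On the log2 scale the qko value was -4.88, and -5.52 without the number 7 libraries.

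CRA1 in water did not differ detectably from WT in qko (log2 fold change -0.20, 95% interval -0.58 to 0.19) or in myb (0.13, -0.25 to 0.52). It was 4.37-fold lower in cyp, with 5396, 7763 and 4608 scaled CPM in cyp seeds in water and 25716, 25475 and 26441 in WT seeds in water (edgeR adjusted p = 1.9e-11). CRU3 was 7.16-fold lower in cyp, with 5211, 6913 and 4298 scaled CPM against 38846, 39136 and 39618 in WT. The cyp genotype thus had the lowest cruciferin A and C transcript levels in water, and qko and myb the lowest cruciferin B. SESA2 was 2.98-fold lower in cyp, and was called in neither qko nor myb. Its interval ran from -0.51 to 0.25 in qko and from -0.08 to 0.69 in myb, and SESA2 was called higher in myb without replicate 9 of myb in water (adjusted p = 0.044) and lower in qko without the number 7 libraries of qko (0.040).

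The libraries labelled qko were also set against each of the mutants whose genes the label combines. Against cyp, dry qko seeds had 3 members higher and 4 lower, beside 24.8% and 26.4% of all tested loci. SESA2 was 3.17-fold higher, CRA1 2.36-fold higher and CRU3 1.98-fold higher. SESA4 was 21.1-fold lower, CRU2 7.60-fold, SESA3 3.29-fold and SESA5 2.19-fold lower. SESA1 at -0.51 did not pass (edgeR adjusted p = 0.051), and it passed with no filter on low counts (0.038), without replicate 4 of dry qko (0.039) and under 4 other settings. In water 3 members were higher and 3 lower, beside 38.3% and 36.2% of all tested loci. These counts in water lie near those shares. CRA1, SESA2 and CRU3 were again the higher ones, at 3.81-fold, 2.72-fold and 2.79-fold. SESA4 (-4.72 on the log2 scale), CRU2 (-2.94) and SESA3 (-1.86) were lower, and SESA4 and SESA3 were at -5.46 and -2.51 without the number 7 libraries of qko. SESA1 (-0.16) was called lower without those libraries (edgeR adjusted p = 0.0080), without replicate 7 of qko in water alone (0.035), with total-count scaling (0.020) and with scaling to the counts outside the storage and oil body loci (0.034). SESA5 (0.31) was called higher with a replicate block (0.027), without number 8 of all cyp groups (0.042), without replicate 8 of cyp in water (0.041) and without replicate 6 of qko in water (0.042).

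Against myb, dry qko seeds had 2 members lower, beside 4.89% of all tested loci. SESA1 was 2.34-fold lower, with 1887, 1420 and 1633 scaled CPM in dry qko seeds and 4284 and 3409 in dry myb seeds (edgeR adjusted p = 0.00067). SESA4 was 3.79-fold lower (adjusted p = 0.0029). With only these groups in the fit, SESA2, SESA3 and SESA5 were called lower as well, which made 5, and 1590 loci in all were called lower, against 883. SESA5 was also called lower with total-count scaling (adjusted p = 0.034) and with scaling to the counts outside the storage and oil body loci (0.027). CRU2 did not differ detectably, and the 95% interval of its log2 difference ran from -0.42 to 0.37. In water 6 members were lower, beside 11.3% of all tested loci, the largest differences being SESA4 (7.40-fold) and SESA1 (3.08-fold). CRU2 lost that call without replicate 6 or 7 of myb or replicate 4 or 6 of qko in water (edgeR adjusted p = 0.051 to 0.096). CRU3 lost it without any of the same 4 libraries or replicate 9 of myb (0.062 to 0.094). With only the compared groups in the fit 2 members were called, SESA1 and SESA4, and 858 loci in all were lower, against 2048. SESA2 (-0.43, adjusted p = 0.087) was called lower without the number 7 libraries of qko (0.0021), without replicate 7 of qko in water (0.0084) or replicate 9 of myb in water (0.022), and under both other scalings (0.040 and 0.033). Without the number 7 libraries SESA4 was at -3.60 on the log2 scale, against -2.89 with them, and SESA3 at -1.64, against -1.01.

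Whether the drop on imbibition differed between a mutant and WT was tested as the difference of the 2 responses. In cyp 4 of 8 members dropped more than in WT, beside 22.8% of all tested loci. SESA5 dropped by a further 1.79 on the log2 scale, CRA1 by 1.43, CRU2 by 1.29 and CRU3 by 1.13 (edgeR adjusted p = 1.9e-06, 6.2e-05, 8.3e-05 and 0.00051). These 4 calls held without each library in turn. The 4 tandem albumins did not pass, their differences lying between -0.88 and 0.36. SESA1 (-0.62, adjusted p = 0.11) passed with a replicate block (0.029) and with only the compared groups in the fit (0.0020), where SESA4 passed too (0.0044).

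In qko 2 of 8 members dropped more than in WT, beside 13.6% of all tested loci: CRU2 by a further 1.30 and CRA1 by 0.73 (edgeR adjusted p = 0.00012 and 0.036). CRU3 lay near the threshold (-0.64, adjusted p = 0.054) and was called by DESeq2 (0.011), with a replicate block (0.021) and under 4 other settings. CRU3 was also called without replicate 7 of qko in water (edgeR adjusted p = 0.049). The CRA1 call was lost without replicate 8 of dry WT, any of the 3 WT libraries in water, or replicate 4 or 6 of qko dry or in water (adjusted p = 0.056 to 0.081). Without the number 7 libraries of qko, which stood apart, 7 of 8 members were called, adding SESA4 (-1.91), SESA3 (-1.19), CRU3 (-0.71), SESA5 (-0.67) and SESA1 (-0.66), while 2747 loci in all were called to drop more, against 2460 with them. In the imbibed number 7 library SESA3 stood at 913 scaled CPM, against 335 and 353 in the other qko libraries in water. In myb only CRU2 dropped more, by 0.77 (adjusted p = 0.047), beside 6.14% of all tested loci. That call was lost with a replicate block (0.092) and without replicate 8 or 9 of dry WT, any WT library in water, either dry myb library, or replicate 6 or 9 of myb in water (0.065 to 0.11).

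KNO3 and KSCN were compared with water within each genotype. None of the 64 tests of a member was called by edgeR, and DESeq2 also called 0 members. For KNO3 0% of all tested loci were called in qko, myb and WT and 1.98% in cyp, and for KSCN 0% in every genotype. At an unadjusted p under 0.05 there were 2 member tests. Over all tested loci KNO3 gave 556 such tests in qko, 291 in myb, 2927 in cyp and 366 in WT, and KSCN gave 742 in qko, 2270 in myb, 339 in cyp and 173 in WT. DESeq2 called 552 loci for KNO3 in cyp, 2 in WT and 1 in qko.

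The log2 differences of the members lay between -0.48 and 0.62, and the lowest adjusted p was 0.23. The 95% intervals reached from -1.28 to 1.48 at their widest, so changes of this size were not detectable for every member. The highest value was CRU2 of qko in KSCN, with 179, 179 and 132 scaled CPM, against 94.2, 94.4 and 130 in water (0.62, SE 0.18, edgeR adjusted p = 1). The libraries of replicates 4 and 6 were higher in KSCN, and those of replicate 7 were alike. CRU2 and CRA1 of cyp were called higher in KNO3 without replicate 6 of cyp in KNO3 (0.60 and 0.55, adjusted p = 0.018 and 0.037). With all libraries CRU2 had 774, 999 and 1461 scaled CPM in KNO3 and 767, 929 and 740 in water, and the groups overlapped.

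The make-up of the storage transcripts can be given as shares of the counts in the 8 loci. In dry seeds CRA1 held 56.1% ± 1.91 of them in qko, 51.3% ± 1.24 in myb and 41.6% ± 0.0759 in cyp, against 26.9% ± 0.977 in WT. SESA3 held 1.15% ± 0.156 in qko, 1.56% ± 0.173 in myb and 6.60% ± 0.256 in cyp, against 16.6% ± 1.52 in WT. Every mutant thus leaned towards CRA1 and away from SESA3, by the most in qko. CRU2 held 0.478% ± 0.0671 in qko, 0.474% ± 0.0222 in myb and 6.35% ± 0.0643 in cyp, against 4.18% ± 0.140 in WT. SESA5 held 2.27% in qko, 3.10% in myb and 8.68% in cyp, against 5.01% in WT, so cyp parted from the others there. CRU3 varied least as a ratio between genotypes, at 38.5% in qko, 40.8% in myb, 34.0% in cyp and 44.1% in WT.

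**Figure D5:**
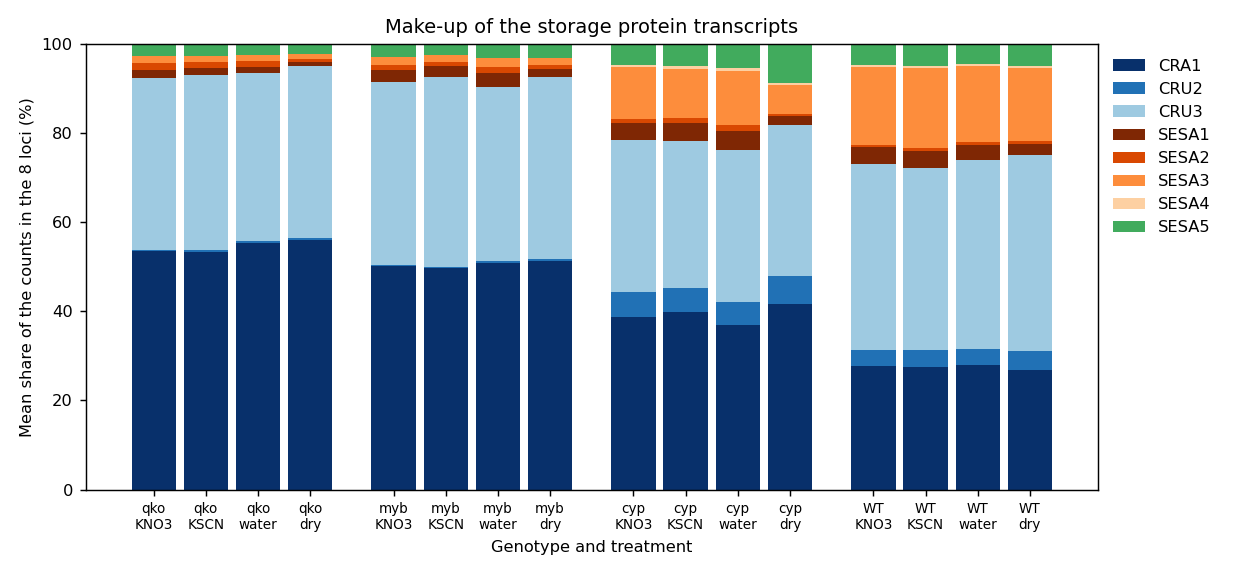
Mean share of each member in the counts of the 8 loci, in percent, stacked for the 16 groups. CRA1 takes 56.1% in dry qko, 51.3% in dry myb, 41.6% in dry cyp and 26.9% in dry WT, and SESA3 takes 1.15%, 1.56%, 6.60% and 16.6% in the same groups.

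The same shares were taken after imbibition. In water CRA1 held 55.4% ± 0.528 of the counts in the 8 loci in qko, 51.0% ± 0.126 in myb, 36.8% ± 1.58 in cyp and 28.0% ± 0.624 in WT. In cyp SESA3 held 12.2% ± 0.535 in water and 6.60% ± 0.256 dry, while SESA5 held 5.34% ± 0.349 in water and 8.68% ± 0.181 dry. The libraries of the 2 treatments did not overlap for either gene.

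Across the 16 groups each member had its own span. The highest group mean was 194 times the lowest for SESA4, 117 times for CRU2 and 92.2 times for SESA3, and between 10.6 times (SESA2) and 24.0 times (CRU3) for the others. Dry WT was the highest group for 6 members, dry qko for CRA1 and dry myb for SESA2. Imbibed qko groups were lowest for CRU2, SESA1, SESA3 and SESA4, and imbibed cyp groups for CRA1, CRU3, SESA2 and SESA5. With the 16 groups in order of level, the libraries of neighbouring groups were apart at 3 (SESA2) to 6 (SESA3 and SESA4) of 15 steps. How often neighbouring groups were apart for the other tested loci was not counted. For CRU2 the order began with dry WT (12435 ± 783 scaled CPM), dry cyp (7515 ± 299) and the imbibed WT groups. Dry WT, dry cyp and the imbibed WT groups were apart, while the imbibed WT groups overlapped each other. KNO3-treated cyp (1078 ± 350), dry myb (1005 ± 2.58) and dry qko (988 ± 165) followed. KSCN-treated cyp (925 ± 148) and cyp in water (812 ± 102) came next. Neighbours among these groups overlapped, while dry myb lay above cyp in water. The imbibed myb and qko groups came last, between 106 and 190 scaled CPM.

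Over the 16 group means of log2 scaled CPM the members fell into correlated sets, given as a description because the groups share genotypes and treatments. CRU2, SESA3 and SESA4 correlated with each other at r = 0.910 to 0.948 (Pearson). CRA1, CRU3 and SESA2 did so at r = 0.914 to 0.945. Between the sets the values were lower, such as 0.221 for CRA1 with CRU2 and -0.036 for SESA2 with SESA4. SESA5 and SESA1 were closest to the mean profile of the 8 members, at 0.960 and 0.945. The loci outside the members that were most like that mean profile, among 12153 with at least 5 CPM, were AT4G15630 (r = 0.985), DEL2 (0.984), GSH1 (0.972), TI2 (0.970) and AT3G53970 (0.968). GSH1 encodes glutamate-cysteine ligase, the first enzyme of glutathione synthesis.

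Other products of seed maturation, from lists chosen with earlier results known, were looked at beside the members. All 6 oil body loci (oleosins and a caleosin), all 5 other cupin storage loci and all 6 late embryogenesis loci were lower in water than dry in each genotype, beside 31.3% to 38.9% of all tested loci. In dry seeds 4 of 6 oil body loci were lower in qko, 3 in myb and 4 in cyp, with medians of -0.81, -0.59 and -0.88, beside 23.6%, 17.3% and 13.4% of all tested loci lower. The other cupins were lower at 3 of 5 loci in dry qko, 4 in dry myb and 2 in dry cyp, with medians of -0.99, -0.96 and -0.28. The 6 late embryogenesis loci were not alike in this. By DESeq2 1 was higher and 0 lower in dry qko, 1 and 2 in dry myb, and 0 and 3 in dry cyp. Of all tested loci edgeR called 25.4%, 20.6% and 16.1% higher in these comparisons. AT1G03890, a cupin next to CRU2 on chromosome 1, was lower in qko (-1.05), in myb (-1.88) and in cyp (-0.80), beside -3.65, -3.63 and -0.73 for CRU2, a difference between the genes that was not tested. PAP85, a vicilin-like protein, had 16547 ± 1600 scaled CPM in dry qko, 16859 ± 127 in dry myb and 30560 ± 2713 in dry cyp seeds, against 32767 ± 2138 in dry WT seeds. On imbibition the drop was larger in cyp than in WT for 6 of 6 oil body, 5 of 5 cupin and 6 of 6 late embryogenesis loci, with median differences of -1.99, -2.15 and -2.48, beside 22.8% of all tested loci.

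Of 12 maturation regulators 10 were tested. In dry seeds qko had 3 higher and 3 lower, myb had 2 higher and 3 lower, and cyp had 0 called by edgeR, with 3 at an unadjusted p under 0.05 and 1 called lower by DESeq2. These counts lie near the share of all tested loci called, which was 25.4% higher and 23.6% lower in qko and 20.6% and 17.3% in myb. ABI3, the B3 factor of late maturation, had 195 ± 10.1 scaled CPM in dry qko and 190 ± 27.5 in dry myb seeds, against 266 ± 15.9 in dry WT seeds (log2 fold changes -0.45 and -0.49, edgeR adjusted p = 0.0027 and 0.0052). EEL, a bZIP factor, was lower in qko (-0.86) and in myb (-0.83). BZIP53, a partner of other bZIP factors on albumin promoters, was higher in qko (1.06) and in myb (0.34). Of 5 repressors of maturation genes 0 were higher and 3 lower in dry qko, 1 and 3 in dry myb, and 1 and 2 in dry cyp. In dry cyp 16.1% of all tested loci were called higher and 13.4% lower, and DESeq2 called 0 of the 5 repressors higher and 2 lower. The repressor VAL3 was lower in qko (-1.47) and in myb (-1.11). Of the regulators 2 were higher and 6 lower in water than dry in cyp, beside 40.8% of all tested loci higher and 38.9% lower, and 3 and 6 in WT, beside 37.1% and 33.5%. ABI5, the bZIP factor of dry seeds, was among the lower ones, at -3.75 in cyp and -2.21 in WT.

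Among 11 loci for sorting and cutting storage proteins, GAMMA-VPE, a vacuolar processing enzyme, had 25.6 ± 1.40 scaled CPM in dry qko and 26.3 ± 1.19 in dry myb seeds, against 99.6 ± 4.50 in dry WT seeds. BETA-VPE, the form most used on storage proteins, was called in neither qko (0.19) nor myb (-0.10) and was lower in cyp (-0.35, edgeR adjusted p = 0.020). In all 5 of the 11 loci were lower in dry qko, 3 in myb and 3 in cyp, and 1, 1 and 0 were higher, beside 23.6%, 17.3% and 13.4% of all tested loci lower and 25.4%, 20.6% and 16.1% higher.

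Markers of the tissues in a seed moved with some of these comparisons, and their part in the results was not tested. The 4 endosperm markers summed to 17572 to 35487 scaled CPM in dry qko, 12513 to 37420 in dry myb and 6951 to 19640 in dry cyp seeds, against 16092 to 18413 in dry WT seeds, nearly all of it from EPR1. The 7 seed coat markers summed to 342 to 367 scaled CPM in dry qko, 432 to 500 in dry myb and 537 to 556 in dry cyp, against 410 to 438 in dry WT. In water these were 329 to 535 in qko, 695 to 791 in myb and 1329 to 1507 in cyp, against 1055 to 1102 in WT. Nearly all of each sum came from AT5G67360, with 4786 to 46760 counts per library, while the other seed coat markers had at most 407. By DESeq2 some seed coat loci were higher and some lower than WT in water in each mutant. TT12 had at most 2 counts, TT10 at most 4 and ZOU at most 4 in any library. The 4 photosynthetic markers summed to 87.4 to 136 scaled CPM in cyp seeds in water, against 13.3 to 17.8 in WT seeds in water, and to 11.5 to 22.1 in qko and 12.9 to 17.6 in myb. LHCB2.1 among them had at most 5 counts in any library. AT1G67090 had 210 to 4128 counts per library and made up most of the sum, and the other photosynthetic markers had at most 143. The 5 seed identity markers were present throughout, at 35908 to 39187 scaled CPM in dry qko, 31718 to 35219 in dry myb and 26395 to 28163 in dry cyp, against 45137 to 48791 in dry WT. In water they summed to 8634 to 15352 scaled CPM in qko, 8251 to 10353 in myb and 1996 to 2797 in cyp, against 14210.5 to 15591.6 in WT.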

How the data were processed

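RNA from whole seeds was sequenced in paired 100-base reads in 45 libraries. The deposited table gives estimated counts per transcript, 1 column per library. Per the submitters' processing notes the tool was Salmon, with no version, and the build is not given in the sources used here. Rounding followed summing by locus, and 27587 loci resulted. Loci with low counts were removed with filterByExpr by group (minimum count 10, total 15), which left 18066. All 45 libraries entered 1 model with 16 groups (edgeR 4.0.16, limma 3.58.1 and R 4.3.3), with scaling by trimmed means (TMM) and the quasi-likelihood F test. P-values were adjusted by Benjamini-Hochberg over all tested loci, with a threshold of 0.05. Standard errors are the log2 fold change over the root of F, and intervals cover 95% with 29 degrees of freedom. The code was tested on simulated data. DESeq2 1.42.0, other scalings, no filter, a replicate block, the compared groups alone, SESA1 to SESA4 summed and leaving out each library were alternatives. Leaving out number 7 of qko or number 8 of cyp was added after the libraries were compared. The members and the gene lists were chosen with earlier results of these data known. From each list up to 3 called loci with the largest change and at least 1 CPM, or the one with the smallest p where none was called, were eligible to be named in a comparison, and further loci, such as PAP85 in cyp and BETA-VPE in qko and myb, were named beside them after their values were seen. Numbers were taken to pair libraries where at least 3 were shared and every correlation of deviations from the group means was over 0.1, which held among the imbibed qko groups (0.338 to 0.627). This was looked at within genotypes only. In comparisons between genotypes the replicate block joined equal numbers across genotypes, a sharing that was not checked. The depth of 18097331 to 22910834 counts per library limits the lowest member, SESA4 in imbibed qko seeds, most. Sequences were read from RefSeq TAIR10.1 with Biopython 1.88, the window before CRU2 is not reported here, and 27392 loci were found in its gene table.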

Additional observations from a re-analysis of the deposited data

Results flagged for a closer look

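In 7 cases the drop of a member on imbibition differed between a mutant and WT by the test of the difference itself, given as the response of the mutant minus that of WT on the log2 scale. In the libraries labelled cyp these were SESA5 (-1.79, SE 0.27), CRA1 (-1.43, SE 0.27), CRU2 (-1.29, SE 0.25) and CRU3 (-1.13, SE 0.25). Beside them 22.8% of all tested loci were called to drop more in cyp. In those labelled qko they were CRU2 (-1.30, SE 0.25) and CRA1 (-0.73, SE 0.27), beside 13.6% of all tested loci. The CRA1 call was lost when any 1 of several libraries was left out (edgeR adjusted p = 0.056 to 0.081). In those labelled myb CRU2 differed by -0.77 (SE 0.26), beside 6.14% of all tested loci. The CRU2 call in myb was lost with a replicate block (edgeR adjusted p = 0.092). It was also lost when any 1 of several libraries was left out (0.065 to 0.11). The 3 differences share the dry and imbibed WT libraries.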

How the results depend on the processing

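The count of called members was recomputed 355 times under other settings. It stayed within 1.5 times in 327 and moved in 28, and no member that was called changed its direction. In dry cyp seeds against WT total-count scaling gave 4 of 8. With only the compared groups in the fit, qko against myb gave 5 dry and 2 in water. For the larger drop on imbibition, SESA1 to SESA4 summed gave 2 of 5 units in qko, 1 in myb and 4 in cyp, the same counts from fewer units. The replicate block gave 0 in myb and 4 in qko. Leaving out number 7 of all qko groups gave 7. Leaving out 1 library at a time gave 0 to 1 in myb, 1 to 5 in qko (5 without replicate 7 of qko in water) and 0 to 2 for KNO3 in cyp (2 without replicate 6 of cyp in KNO3). Where 1 dry myb library was left out, the other was assumed to vary like the other groups. The cause of these moves was not tested. Of 200 single tests of a member, the replicate block changed 6 calls: it removed CRU2 in the response of myb (adjusted p = 0.092) and added CRA1 of dry myb against WT, SESA5 of qko against cyp in water (0.027), SESA1 in the response of cyp, and CRU3 and SESA4 in that of qko (0.035 for SESA4). Imbibed cyp groups share at most 2 numbers, too few for the pairing rule, but correlated at 0.442 to 0.530 in 4 of 5 same-numbered pairs (0.0895 in the other). WT in KNO3 and in water correlated at 0.189 and 0.236 over 2 shared numbers. In qko the block changed no member call for KNO3 or KSCN.

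Counts over all loci moved more. With total-count scaling the loci called lower in water than dry numbered 2574 (qko), 2543 (myb), 4124 (cyp) and 2460 (WT), and with trimmed means 5811, 5662, 7035 and 6047. Loci lower in dry cyp than WT were 561 with total-count scaling, against 2415. Those lower in dry qko than myb were 1798, against 883. Loci called for KNO3 in cyp were 358, against 552 by DESeq2, 2284 with the replicate block and 0 with only the compared groups. The share of called loci that were higher moved to 20.6% for dry qko against cyp with total-count scaling (48.4% with trimmed means), 35.6% in water (51.4%), 69.5% for dry myb against WT (54.4%), 72.5% for cyp against WT in water (49.4%) and 23.2% for dry qko against myb (52.0%).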

Other observations

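CRA1 has a second transcript in the table, AT5G44120.2. It took 11.8%, 26.7% and 11.6% of the counts of the locus in replicate 7 of qko in water, in KNO3 and in KSCN. In the other 42 libraries it took 0.00146% to 0.0484%. These 3 libraries are those that stood apart from the other replicates of their groups. The dry library with number 7 was not among them.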
